A study of Mus musculus with 10 samples.

Results

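FLAG-tagged Nanog was called at 6640 genomic regions of the pre-iPSC line that carried both transgenes, FLAG-Nanog and Sin3a, and at these regions no other deposited peak list held a peak. They were found by merging the 4 peak lists of the series by 1 shared base or more and keeping those whose single source was the FLAG list of the Nanog + Sin3a line. These sites made up 14.5% of the 45707 merged regions (95% Wilson interval 14.2 to 14.9%) and 19.4% of the 34154 FLAG regions of the Nanog + Sin3a line. Each region consisted of 1 peak. The peak lists themselves chose the sites, so their peak strength is given as a description, and a site that is absent from a list was below that list's calling threshold, which is not the same as unbound.

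The cells were female pre-iPSCs of strain 129/MF1, partly reprogrammed cells derived from neural stem cells, with an Oct4-GFP-IRES-puro reporter, kept in serum + LIF. All lines had received PiggyBac transposon vectors driven by the CAG promoter and had been selected with hygromycin, blasticidin or both. The labels do not say whether a line was 1 clone or a pool. The 4 ChIP groups, each of 2 replicates, were FLAG ChIP in the Nanog (FLAG) + Sin3a line, FLAG ChIP in the Nanog (FLAG) line with an empty vector, Sin3a ChIP in the Nanog (FLAG) + Sin3a line, and Sin3a ChIP in the Sin3a line with an empty vector. The series also has 1 input and 1 IgG sample, both not analysed here. The files analysed hold 1 list for each group, with no value for a single replicate. No difference between lines could therefore be set against the spread between replicates, and all intervals are 95% intervals that cover counting error only, over sites for shares and over fragments for the fragment number of a summit.

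Nanog is a homeodomain transcription factor of the pluripotency network, and raising its level helps partly reprogrammed cells to reach the pluripotent state. Sin3a has no DNA-binding domain of its own and acts as the scaffold of a complex that carries the histone deacetylases Hdac1 and Hdac2, which transcription factors bring to chromatin. A FLAG ChIP recovers the tagged, transgenic Nanog and not the endogenous protein.

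Most of the sites were weak, and a small part of them was strong. The authors' fold enrichment at the summit, the ratio of the ChIP pileup to the expected background, had a median of 3.85 at the 6640 sites (quartiles 3.39 and 4.62, range 1.82 to 17.4). It had a median of 4.74 in the same list at the 12306 regions with FLAG in both lines and no Sin3a. The number of ChIP fragments over the summit, recovered from the fold and p-value of each peak, had a median of 32 (quartiles 28 and 38) at the 6608 sites where it could be recovered, against 40 at the regions shared by both lines. On both measures the sites stood below the shared regions of the same list. Their summits lay a median of 22.5 bp from the middle of the peak, and their median width was 243 bp, against 332 bp at the shared regions.

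Peaks with a −log10 q of at least 25 are called strong here. Strong were 155 of the 6640 sites, or 2.33%. Among all FLAG peaks of that line 15.5% passed this level. A −log10 q of at least 10 was reached by 1287 sites, or 19.4%, where 46.7% of all FLAG peaks of the line passed. The class called in the Nanog line alone held fewer strong regions. Of the 7334 regions called only by FLAG in the Nanog line, 443 (6.04%) reached 10 and 1 reached 25, although in the whole FLAG list of the Nanog line 47.7% reached 10 and 17.2% reached 25. The plot of strength by class shows the 3 distributions pulling apart with increasing −log10 q.

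**Figure D1:**
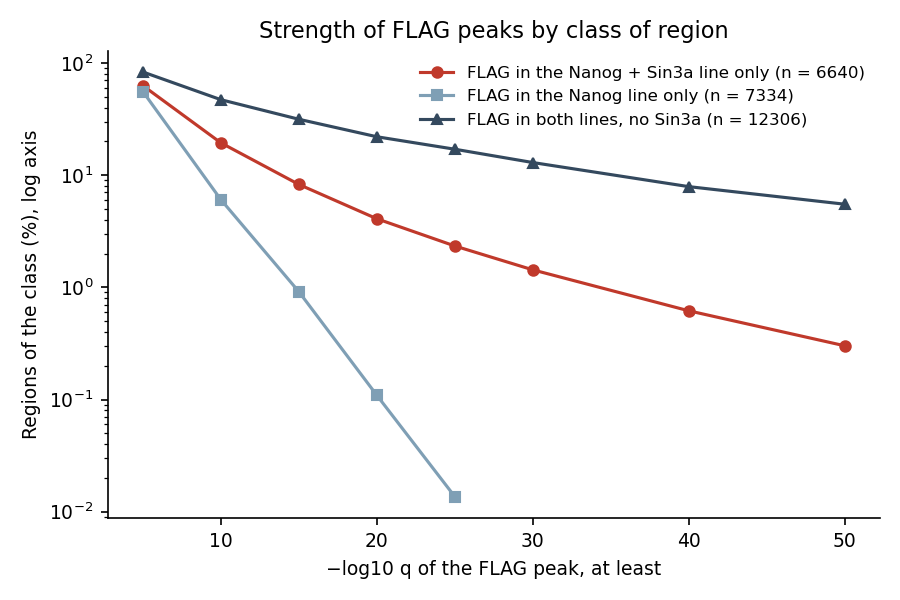
Percent of the regions of a class (log axis) whose FLAG peak had at least the −log10 q on the horizontal axis, for sites of the Nanog + Sin3a line only, of the Nanog line only, and of both lines without Sin3a. At 25 the shares were 2.33, 0.0136 and 17.0%, and the class of the Nanog line only held no region at 30 or above.

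Set against all FLAG peaks called in the Nanog line, 88.3% of the sites had a −log10 p at or above their 5th percentile (5.65), where 94.0% of all FLAG peaks of the Nanog + Sin3a line did. At or above their median (12.3) stood 22.5% of the sites, where 50.5% of all FLAG peaks of the Nanog + Sin3a line did. The ChIP fragments were scaled in each list by a recovered factor. It was read as 1.37 ChIP tags per control tag in the Nanog + Sin3a line and 1.15 in the Nanog line. That the lists share 1 control is inferred from the recovered background, since no control is named. The fewest fragments at a called summit of the Nanog line, where the recovered background was at its lowest value, were 18.

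The strongest site lay on chromosome 8 at 60202544-60202941 (all coordinates are of mouse build mm9). Its summit held 141 fragments (Poisson interval 119 to 166), and an equal scaled level in the Nanog line would have been 119 fragments. Its rank by −log10 q among the 36286 FLAG peaks of its list was 361. The nearest FLAG summit of the Nanog line was 9.07 kb away, and the nearest Sin3a summit of either line 71.7 kb away. A site on chromosome 6 at 54038232-54038674 held 116 fragments and had its nearest FLAG summit of the Nanog line at 117 kb. On chromosome 12 at 50680561-50681080 a site with a fold of 14.0 and 109 fragments stood farthest from other peaks among the 12 strongest sites. Its nearest FLAG summit of the Nanog line was 1538 kb away and its nearest Sin3a summit 1769 kb away.

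Other sites among the 12 strongest stood closer to a peak of another list. On chromosome 15 at 80677465-80677991 the fold was 14.4, and a FLAG summit of the Nanog line lay 2.97 kb away. The site on chromosome 6 at 38818497-38819052 had the closest Sin3a summit of the 12, at 6.97 kb. Its fold was 10.2, with 124 fragments over a background 1.68 times the lowest of its list. The remaining 7 lay on chromosome 9 at 113579846-113580284, chromosome 8 at 42007050-42007521 and 49247490-49247959, chromosome 10 at 26039388-26039823 and 111338519-111338939, chromosome 15 at 94859208-94859701 and chromosome 3 at 84738373-84738802. Their folds ran between 12.6 and 14.5.

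By fragments per 100 bp of width, the densest sites were of another kind. A site on chromosome X at 123303228-123303431 held 107 fragments, 52.5 per 100 bp, with a fold of 2.03 over a background 7.98 times the lowest of the list. On chromosome X at 166407872-166408062 there were 71 fragments with a fold of 1.82 over a background 5.88 times the lowest. The strongest site of all, on chromosome 8, came after these with 35.4 fragments per 100 bp over a background close to the lowest. High fragment numbers on these X sites thus went with a high background.

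A raised background was less frequent at the sites than at shared regions. The recovered background had 1 lowest value, held by 48.1% of the peaks of each FLAG list. A local control level below this value cannot be seen. The background exceeded it by more than 5% at 33.4% of the sites and at 35.5% of the regions shared by both lines without Sin3a. The difference was -2.11 points (Newcombe interval -3.52 to -0.683). Among strong sites the share was 19.4%, against 29.5% of strong shared regions, a difference of -10.1 points (-15.9 to -2.95). The lowest background divided by the narrowest peak width was 25.9 tags per kb in each of the 4 lists.

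Unequal FLAG levels were also found among regions that were called in both lines. The scaled FLAG level, fragments over the summit divided by the ChIP tags per control tag of the list, was compared between lines at the regions with FLAG in both lines and no Sin3a. Over 12246 such regions its median log2 difference, Nanog + Sin3a line over Nanog line, was -0.02. Among them 354 were at least 2-fold higher in the Nanog + Sin3a line (2.89%), and 18 were at least 2-fold lower (0.147%). Chosen by a −log10 q reaching 40 in the Nanog + Sin3a line, 208 of 971 regions (21.4%, 18.96 to 24.1%) were at least 2-fold higher there. Chosen in the same way in the Nanog line, 2 of 681 (0.294%, 0.0806 to 1.06%) were at least 2-fold higher in the Nanog line. Choosing by strength in 1 line favours higher values in that line, so each share is read only against its mirror image. These levels have no replicates and compare the lists, not the conditions.

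The 3 most uneven of these regions were chosen after their values were seen. The first, on chromosome 3 at 82975731-82976167, had 175 fragments in the Nanog + Sin3a line and 22 in the Nanog line, a scaled level 6.70 times higher. On chromosome 13 at 97405179-97405758 there were 143 fragments in the Nanog + Sin3a line and 25 in the Nanog line, a ratio of 4.82. On chromosome 2 at 20274186-20274720 there were 143 in the Nanog + Sin3a line and 26 in the Nanog line, a ratio of 4.64. In the Nanog line their peaks had a −log10 q of 4.45, 2.24 and 6.36, all below 10.

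**Figure D2:**
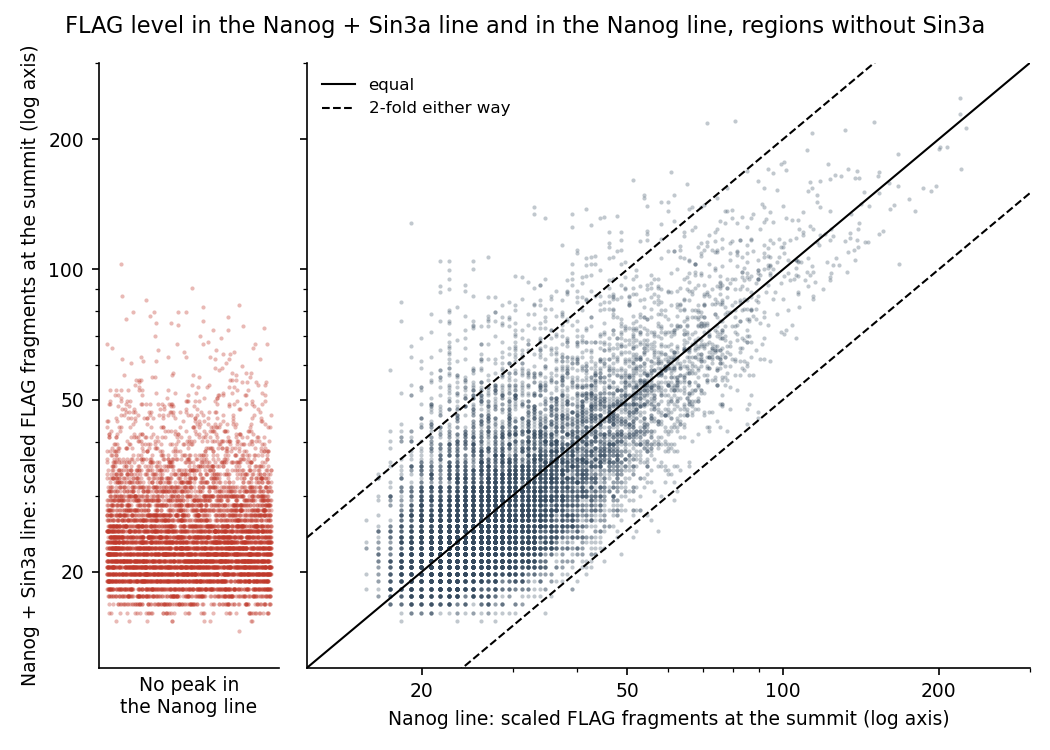
Scaled FLAG fragments at the summit in the Nanog + Sin3a line (vertical, log axis) against the Nanog line (horizontal, log axis), 1 point per region without Sin3a; the left strip holds the sites with no peak in the Nanog line, spread sideways at random. Points above the upper dashed line are at least 2-fold higher in the Nanog + Sin3a line (354 of 12246), and 18 lie below the lower one.

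Sin3a peaks were rare where FLAG was strong in the Nanog + Sin3a line and lower or not called in the Nanog line. Of the regions where FLAG was strong in the Nanog + Sin3a line and not called in the Nanog line, 0 of 155 held a Sin3a peak of either line (Wilson interval up to 2.42%). Of the strong regions that had a FLAG peak in the Nanog line too, 3332 of 5424 held one (61.4%, 60.1 to 62.7%), a difference of -61.4 points (-62.7 to -58.7). In merged regions a Sin3a peak can join FLAG peaks of both lines that do not touch, so the shares were also taken by direct overlap of each FLAG peak, a choice made after seeing the data. Of the strong FLAG peaks that overlapped no FLAG peak of the Nanog line, again 0 of 155 overlapped Sin3a (Wilson interval up to 2.42%), against 3359 of 5460 (61.5%) of those that did. At a −log10 q between 10 and 25 the shares were 27 of 1159 (2.33%) and 63.2%, and below 10 they were 708 of 6061 (11.7%) and 48.3%.

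Between these ends the share of strong regions with a Sin3a peak followed the FLAG ratio of the lines. The ratio takes the strongest FLAG peak of each line in a merged region. Where a Sin3a peak joins FLAG peaks that do not touch, the levels can come from different peaks. The ratio was not redone by direct overlap. It was 0% of the 48 regions whose FLAG level was 3-fold or more higher in the Nanog + Sin3a line (up to 7.41% by the Wilson interval) and 3.31% of the 272 regions that were 2 to 3-fold higher. It was 13.4% of 464 regions at 1.5 to 2-fold, 26.6% of 447 at 1.25 to 1.5-fold, and 74.9% of the 4187 regions below 1.25-fold. The median width was 388 bp at the strong sites and 692 bp at the regions below 1.25-fold, and a wide peak meets a Sin3a peak more easily. The shares were therefore also taken among peaks of at least 400 and under 600 bp. A site lacks Sin3a by the rule, so the end of this series is every strong region not called in the Nanog line, with or without Sin3a. Of these, 0 of 63 held a Sin3a peak. The counts were 0 of 35 regions at 3-fold or more and 0 of 139 at 2 to 3-fold. The shares were 6.5% of 200 at 1.5 to 2-fold, 17.6% of 188 at 1.25 to 1.5-fold and 62.5% of 1201 below 1.25-fold. Within this width too, the share was highest below 1.25-fold. Of the regions without Sin3a, 13.5% of the strong sites and 29.8% of those below 1.25-fold had a Sin3a summit within 10 kb.

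Counted the other way round, the same regions read as follows, with the same limit of merged regions. Among shared regions that were strong in the Nanog + Sin3a line, FLAG was at least 2-fold higher there at 311 of 2091 regions without Sin3a (14.9%, 13.4 to 16.5%). With Sin3a it was so at 9 of 3327 (0.271%, 0.142 to 0.513%). Regions chosen by the same strength in the Nanog line and at least 2-fold higher in that line were 0.561% of those without Sin3a and 0.302% of those with it.

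**Figure D3:**
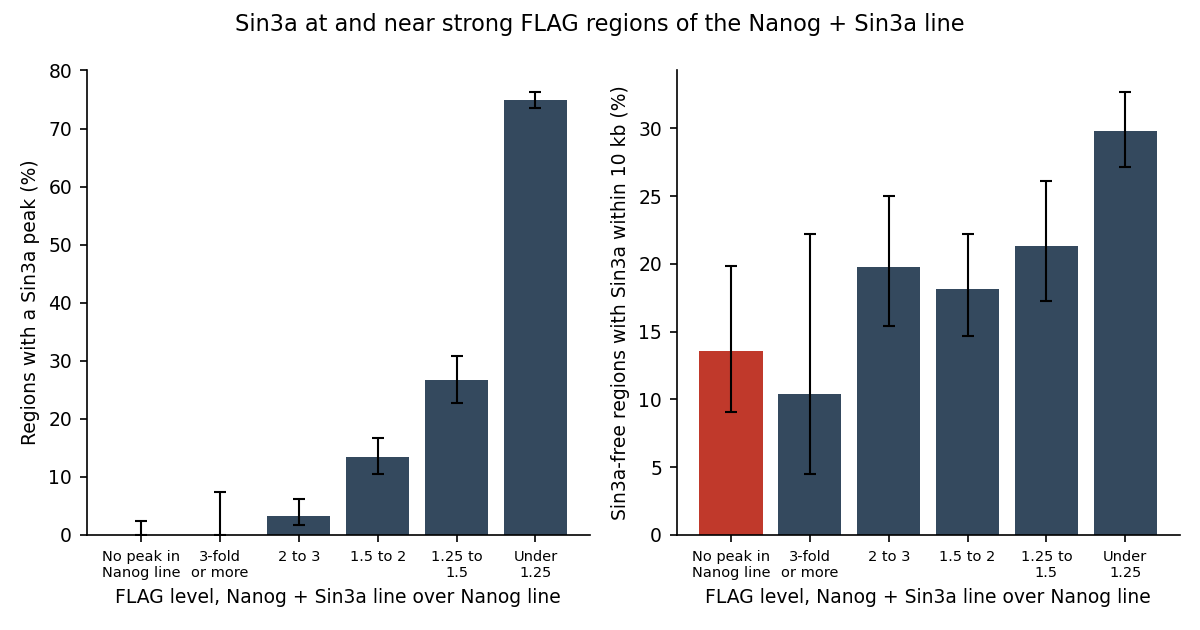
Strong FLAG regions of the Nanog + Sin3a line by the ratio of their scaled FLAG level between lines. They run from all 155 regions with no FLAG peak in the Nanog line at the left to 4187 regions below 1.25-fold at the right. Sites lack Sin3a by the rule, and all of these 155 turned out to be sites. The left panel gives the percent with a Sin3a peak of either line and the right panel the percent of the Sin3a-free regions with a Sin3a summit within 10 kb, with 95% Wilson intervals; the left panel runs between 0% and 74.9%.

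The sites also lay away from Sin3a peaks in distance, a measure the rule did not use beyond the absence of overlap. The nearest Sin3a summit of either line was a median of 32.3 kb away at the sites, 12.1 kb at the regions called only in the Nanog line and 21.5 kb at the regions shared by both lines without Sin3a. Within 10 kb of a Sin3a summit lay 29.0% of the sites (27.9 to 30.1%), 46.6% of the regions of the Nanog line only and 34.8% of the shared regions. The difference was -17.7 points against the regions of the Nanog line only (-19.2 to -16.1) and -5.84 points against the shared regions (-7.22 to -4.46). It was similar with Sin3a peaks of the Nanog + Sin3a line alone (26.4% of the sites and 31.5% of shared regions) and with those of the Sin3a line alone (25.9 and 30.2%).

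Strength and distance moved together. Strong sites had a median distance of 69.5 kb to Sin3a, sites with a −log10 q between 10 and 25 had 58.7 kb, and weaker sites 27.7 kb. Strong sites were also wider than the weaker sites below 10 (median 388 and 229 bp). The rule therefore drops them more easily beside a Sin3a peak, and its part in this trend was not tested. At matched strength the sites stood farther out than the shared regions without Sin3a, which had 39.1, 24.97 and 16.8 kb in that order. Within 10 kb of Sin3a were 13.5% of the strong sites, against 24.5% of the strong shared regions, a difference of -11.0 points (-15.9 to -4.45). For the middle strength the difference was -16.9 points (-19.4 to -14.2), and for the weak sites -7.40 points (-9.12 to -5.66).

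Distance to FLAG peaks of the Nanog line ran the same way. Between peak edges, 17.5% of the sites (1162) lay under 1 kb from such a peak, 29.9% (1984) between 1 and 10 kb, 29.9% (1987) between 10 and 50 kb, 15.8% (1046) between 50 and 200 kb and 6.94% (461) farther. Of the sites under 1 kb, 6.97% reached a −log10 q of 10. The share was 16.0% at 1 to 10 kb, 23.2% at 10 to 50 kb, 29.0% at 50 to 200 kb and 26.9% beyond. Sites beside a called peak were thus the weakest, with a median of 29 fragments against 34 beyond 50 kb. The rule drops wide peaks beside a Nanog line peak more easily, and strong sites were the wider ones. Its part in this trend was not tested. By summits, 46.7% of the sites had a FLAG summit of the Nanog line within 10 kb, whereas 63.0% of the regions of the Nanog line only had a FLAG summit of the Nanog + Sin3a line within 10 kb, a difference of -16.3 points (-17.9 to -14.7). Other FLAG peaks of the same list, in regions with a peak of another list, were also farther from strong sites. The median distance was 29.3 kb for strong sites and 15.0 kb for all sites. The trend with strength was thus not particular to Sin3a.

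**Figure D4:**
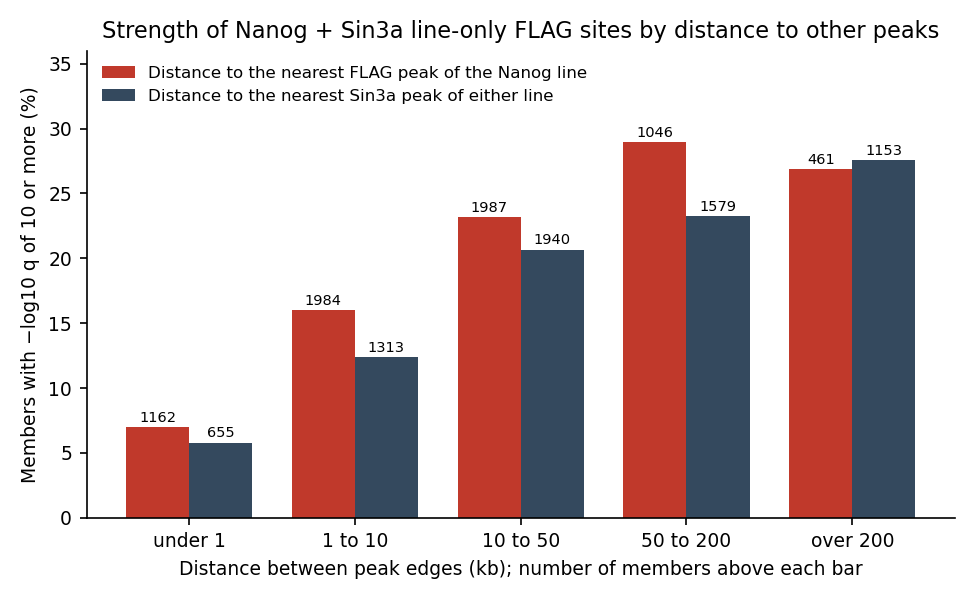
Percent of the 6640 sites whose −log10 q reached 10, by the distance between peak edges to the nearest FLAG peak of the Nanog line and to the nearest Sin3a peak of either line, with the number of sites over each bar. The share was 6.97% under 1 kb and 29.0% at 50 to 200 kb for FLAG, and 5.80% and 23.2% for Sin3a.

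Some sites owed their place to a few bases. The closest lay 1 base from a FLAG peak of the Nanog line, on chromosome 12 at 86797921-86798292, and its fold was 3.60. A gap of 2 bases was found at a site with a fold of 4.23, chromosome 8 at 74683837-74684252, and at one with a fold of 3.51, chromosome 1 at 180250963-180251238. Just outside the rule, a region on chromosome X at 98624018-98624750 (fold 3.05) shared 2 bases with a Nanog line peak of fold 4.60. The peaks of both lines shared 3 bases on chromosome 1 at 173367201-173367505, where the fold was 4.43, and likewise on chromosome 2 at 106535041-106535263, where it was 4.36. Sites with a gap under 50 bases numbered 51, and shared peaks without Sin3a that shared under 50 bases numbered 47 of 12427.

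At a matched number of fragments the sites were narrower than shared regions of the same list. With 60 to 89 fragments, 207 sites had a median width of 367 bp (quartiles 321 and 421), against 453 bp (369 and 585) for 1655 shared regions without Sin3a. With 24 to 29 fragments the medians were 217 bp and 240 bp. The ratio of the medians ran between 0.810 and 0.928 over 6 classes of fragment number. A wide peak meets a peak of another list more easily, so the rule itself favours narrow sites, and its part in this difference was not tested.

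Every chromosome held such sites. Their share of the FLAG regions of the Nanog + Sin3a line was highest on chromosome X, at 29.3% (25.7 to 33.1%), followed by chromosome 14 (25.6%), chromosome 13 (23.3%) and chromosome 3 (23.3%). It was lowest on chromosomes 17 (14.9%), 5 (15.2%), 11 (15.3%) and 7 (15.7%). The share of FLAG regions called only in the Nanog line followed another order, with 26.5% on chromosome 18 at the top and 15.8% on chromosome 13 at the bottom. Both shares count FLAG regions with a Sin3a peak in their base, and by the rule these fall in neither class. How much of either order comes from this was not tested. The 155 strong sites, among 34154 FLAG regions of the line, were spread over all 20 chromosomes. There was 1 among the 781 FLAG regions of chromosome 14 and 19 among the 2618 of chromosome 2. Neighbouring strong sites lay a median of 10.1 Mb apart, and 14 such neighbours lay within 1 Mb.

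**Figure D5:**
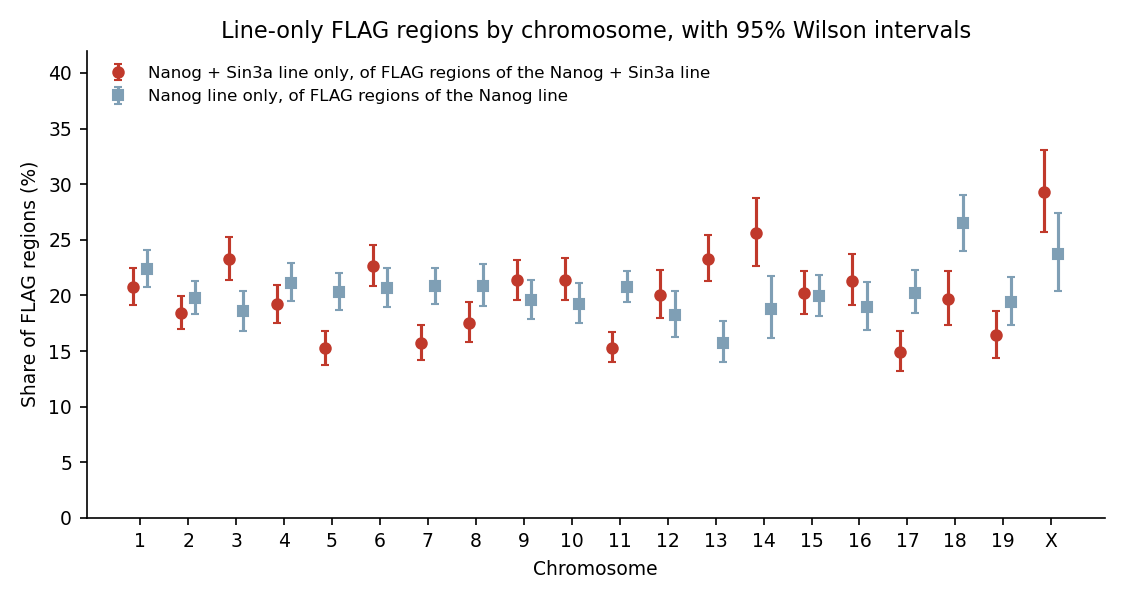
Share of FLAG regions found only in 1 line, by chromosome: sites of the Nanog + Sin3a line only, as percent of that line's FLAG regions, and regions of the Nanog line only, as percent of that line's, with 95% Wilson intervals. The sites ran between 14.9% on chromosome 17 and 29.3% on chromosome X.

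The share of sites also varied along the chromosomes. Here too its base includes FLAG regions with a Sin3a peak, which cannot be sites. In windows of 5 Mb with at least 20 FLAG regions of the Nanog + Sin3a line (431 windows), the sites made up a median of 20.9% of those regions, with quartiles of 15.0 and 27.4%. The 4 windows with the highest share were chromosome 14 at 10 to 15 Mb (17 of 30 regions, 56.7%), chromosome X at 155 to 160 Mb (26 of 46, 56.5%) and at 160 to 165 Mb (27 of 49, 55.1%), and chromosome 6 at 15 to 20 Mb (13 of 24, 54.2%). These windows were picked for this share, so their values are a description. The adjoining X windows held 53 of the 168 sites of the chromosome. Regions of the Nanog line only, which had no part in the choice of the windows, made up 9 of 51 FLAG regions of that line there (17.6%, 9.57 to 30.3%), against 24.4% in the rest of X. In the rest of X the sites made up 115 of 479 FLAG regions of their own line (24.0%, 20.4 to 28.0%). The choice of the windows lowers this share by construction.

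Of the 155 strong sites, 0 lay in these 4 windows, which held 83 sites. Their median folds were 4.43 on chromosome 14, 3.77 and 3.85 in the X windows and 3.98 on chromosome 6. At the regions shared by the lines, the scaled FLAG level had median log2 differences of 0.03 on chromosome 14 (13 regions), 0.09 and -0.02 in the X windows (20 regions each) and 0.10 on chromosome 6 (11 regions). The window medians had a 5th percentile of -0.22 and a 95th percentile of 0.06, so the first X window and the one on chromosome 6 stood above this range. Sin3a regions in the Nanog + Sin3a line and in the Sin3a line numbered 6 and 3 on chromosome 14, 11 and 8 in the first X window, 9 and 7 in the second, and 2 and 9 on chromosome 6. At Sin3a regions shared by these lines the median log2 difference was 0.01 on chromosome 14 (3 regions), -0.0021 and -0.32 in the X windows (6 and 5 regions) and -0.50 on chromosome 6 (2 regions), so Sin3a had no common direction.

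Over the whole genome 2.53% of the sites lay on chromosome X, against 1.82% of shared regions without Sin3a, a difference of 0.710 points (0.278 to 1.17). With the 4 windows left out of every class the shares were 1.75% and 1.63%. Leaving out windows picked for many sites lowers the share of the sites by construction.

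Chromosome 6 at 50 to 55 Mb differed from the X windows. It held 87 sites among 182 FLAG regions (47.8%), more sites than any of the 4 windows above, with 1 strong site. That strong site is the one at 54038232-54038674 named above. There the shared FLAG regions had a median log2 difference of 0.42 (80 regions), and the Sin3a regions shared by the Nanog + Sin3a line and the Sin3a line one of 0.20 (38 regions), both above the 95th percentile of the window medians (0.07 for Sin3a, over 361 windows with at least 10 shared Sin3a regions). Sin3a regions numbered 76 in the Nanog + Sin3a line and 39 in the Sin3a line. FLAG and Sin3a peaks were thus both more numerous and higher in the Nanog + Sin3a line in this segment. The window was singled out after its values were seen.

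Few sites lay in groups. With neighbours at most 50 kb apart, 58.3% of the sites stood alone and 16.6% (15.7 to 17.5%) were in runs of 3 or more, which numbered 308. Of the regions of the Nanog line only 35.5% were in such runs, and of the shared regions without Sin3a, a class with more members, 47.7%. Of the 155 strong sites 89 stood alone and 22 were in runs, shares near those of all sites. The longest run had 12 sites within 125 kb on chromosome 6 at 50888903-51013524, inside the window just described, with folds of 2.39 to 5.99. Its span held 17 FLAG peaks of the Nanog + Sin3a line and 6 of the Nanog line, and 1 Sin3a peak of each Sin3a list.

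The next runs lay on chromosome 10 at 67526551-67743847 and chromosome 7 at 137977246-138101441. The first held 11 sites (folds 3.34 to 5.63) among 24 FLAG peaks of the Nanog + Sin3a line, where the Nanog line had 17 and each Sin3a list 9. The second held 8 sites, with 12 FLAG peaks in the Nanog + Sin3a line and 6 in the Nanog line. A run on chromosome 13 at 97278895-97385344 held 6 sites and the highest fold of the 4 runs, 8.42. The uneven shared region of chromosome 13 named above lies outside its span.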

How the data were processed

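ChIP-seq was run on 10 samples, of which 8 ChIP samples form 4 groups of 2 replicates by their descriptions. Per the submitters' processing notes, build mm9, FastQC 0.10.1, Bowtie 1.0.0 and SAMtools 0.1.19 were used, with no role or order. These notes and the labels name no peak caller, control or pooling of replicates. Each group has 1 deposited list. The deposited score is 10 times the −log10 q with decimals dropped. The deposited fold is a ratio at the summit, (scaled pileup + 1) over (background + 1), as the values show. The deposited −log10 p and −log10 q are the authors' values for the summit.

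Whole ChIP fragments, the scaling of each list and the background were recovered from fold and −log10 p, for 99.6 to 100.0% of the peaks of a list. In simulated peaks 99.4% had a unique solution, and it was the true one in 100% of these. These peaks were drawn from the formula that the recovery inverts. They check the inversion only, not that the deposited values follow the formula. Total reads per sample are not known, so the depth of a list is known only relative to the control. It was 1.37 ChIP tags per control tag for FLAG in the Nanog + Sin3a line and 1.15 in the Nanog line. The lowest background divided by the narrowest peak width, taken as the fragment length, was 25.9 tags per kb in all 4 lists. From this equal value it was inferred that the lists share 1 control. Median fragments at called summits, which also depend on peak strength, were 39 and 33 in these FLAG lists.

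Peaks were merged by 1 shared base, and counts of overlap differed from bedtools by 0 peaks. Shares carry Wilson intervals, differences Newcombe intervals and fragments exact Poisson intervals. A share of 0 carries the upper Wilson bound. Regions named were the 12 sites with the highest −log10 q, the 4 runs with the most sites, the 4 windows of 5 Mb richest in sites, the 3 closest regions on each side of the overlap rule and the 3 sites with the most fragments per base. The sites, classes and rules were chosen with earlier results of these data known. Alternatives changed the overlap, the threshold, the distances and the strength measure. No genome or gene annotation of mm9 was used, so regions carry no gene names or sequences. Python 3.11.15, NumPy 2.4.6, pandas 2.3.3, SciPy 1.17.1, statsmodels 0.14.6 and Matplotlib 3.10.9 were used.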

Additional observations from a re-analysis of the deposited data

How the results depend on the processing

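The number of sites, 6640, stayed within 1.5 times under 6 other settings (5287 to 8446) and was 4161 and 1287 with a −log10 q of at least 5 and 10 in the FLAG list of the Nanog + Sin3a line, which keeps fewer peaks by construction. The 155 strong sites became 271 and 95 with a −log10 q of 20 and 30, and 256 when a site was one without another summit within 200 bp. They were 155 with the FLAG lists alone. The median strength of the sites over that of shared regions without Sin3a, 0.813 by fold, was 0.583 by −log10 q. The share of sites at or above a limit of the Nanog line list was 88.3% for its 5th percentile and 22.5% for its median (94.0 and 50.5% of all FLAG peaks of the Nanog + Sin3a line). For its weakest peak it is 100% by construction, since all peaks of the Nanog + Sin3a list pass. Within 5 and 50 kb, in place of 10 kb, lay 34.6 and 77.2% for FLAG of the Nanog line (46.7%) and 20.8 and 58.7% for Sin3a (29.0%). Among sites with a −log10 q of at least 10, a choice made after seeing the data, the shares within 10 kb were 30.1% and 14.8%. The share on chromosome X, 2.53%, was 1.75% without its named windows, also chosen after seeing the data, which lowers it by construction. The share in runs, 16.6%, was 5.59% with gaps of at most 20 kb and 33.0% with 100 kb. A raised background was found at 25.8% of the sites with a margin of 20%, in place of 33.4% with 5%.

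No paired analysis was possible because the replicates of a group share 1 deposited list, and leaving out a replicate was not possible either. Signal below the calling threshold of a list was not measured.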

Other observations

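Beside the 6640 sites, 464 FLAG regions of the Nanog + Sin3a line lacked FLAG in the Nanog line and carried a Sin3a peak. Of these, 160 had Sin3a in the Nanog + Sin3a line only, 110 in the Sin3a line only and 194 in both. Their median FLAG fold was 3.60, and 22 (4.74%) reached a −log10 q of 10. The strongest, on chromosome 6 at 54542932-54543569, had a FLAG fold of 6.99 with 56 fragments, and Sin3a folds of 3.74 in the Nanog + Sin3a line and 2.99 in the Sin3a line. It lies in the segment of chromosome 6 between 50 and 55 Mb that is described above.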
